A study of Mus musculus with 12 samples.

Results

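The Bcl2 family apoptosis regulators are described here by 10 genes taken by name, Bcl2, Bcl2l1, Mcl1, Bax, Bak1, Bcl2l11, Bad, Bid, Bbc3 and Pmaip1, out of 54532 genes in the count table. All 10 were found and passed the filter on low counts in every comparison. Their transcripts were measured by RNA-seq in 12 libraries from testes of mouse pups at postnatal day (PN) 1, in 4 groups of 3 replicates. Every mouse was of the strain Tg(Pou5f1-EGFP)2Mnn, in which Pou5f1 (OCT4) sequence drives green fluorescent protein in germ cells. The dex germ and dex somatic groups had dexamethasone (dex), a synthetic glucocorticoid, at 10 μg per g of body weight, given to the dams intraperitoneally at E17.5 and E18.5 and to the pups under the skin at PN0. The saline germ and saline somatic groups had saline on the same days. Germ cells are the OCT4-GFP positive fraction of the sort and somatic cells are whatever remained, so the somatic libraries mix Sertoli, Leydig, peritubular, stromal, endothelial and blood cells. Per the study's methods, each replicate pooled testes from at least 2 litters that were dosed independently, and p-values measure the spread between such pools.

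Library totals lay between 18459692 and 25178477 counts, and the lowest count of any of the 10 genes in any library was 13, for Pmaip1 in dex somatic replicate 2. The libraries matched their labels, since the summed level of 9 germ cell markers was 3152 to 3399 CPM (TMM-scaled counts relative to library size) in germ libraries and 3.34 to 8.22 CPM in somatic libraries. In saline, the Sertoli cell gene Amh stood in germ cells at 0.677% of its somatic level, Sox9 at 3.62%, and the Leydig cell genes Star and Cyp11a1 at 17.4% and 4.78%. In the other direction, Ddx4, Dazl and Pou5f1 stood in somatic cells at 0.231%, 0.121% and 0.230% of their germ cell levels. In these bulk libraries, fewer cells of a type and less RNA per cell cannot be told apart.

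Proteins of the Bcl2 family decide whether the outer membrane of the mitochondrion is opened, the step that releases cytochrome c and starts the caspases. Bcl2, Bcl2l1 (Bcl-xL) and Mcl1 hold the membrane closed, Bax and Bak1 form the pores, and the BH3-only proteins Bcl2l11 (Bim), Bad, Bid, Bbc3 (Puma) and Pmaip1 (Noxa) sense stress and act on the other two classes. In the newborn testis, germ cells around this age are known to be culled in part by Bax-dependent apoptosis, and Bbc3 and Pmaip1 are known targets of p53.

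What the family shares in sequence is the BH3 motif, a short helix that fits the groove of the antiapoptotic members. The coding sequence of this motif is shown for 6 of the genes on which the results below turn. Each line is 48 bases of coding sequence, 5′ to 3′ on the coding strand, from GENCODE M21 transcripts (GRCm38). Capitals mark the codon of the conserved leucine and the codons of the small residue and aspartate that follow it. The translated coding sequences were searched for this pattern, with alanine, valine, isoleucine or methionine also required just before the small residue. The search found 1 match in each of the 9 genes examined, and Pmaip1 was left out of it. Bcl2 (chr1:106712569-106712616, minus strand) and Mcl1 (chr3:95659421-95659468, plus) have it in exon 1, Bax (chr7:45465991-45466038, minus) and Bbc3 (chr7:16313758-16313805, plus) in exon 3, and Bak1 (chr17:27022525-27022572, minus) and Bid (chr6:120897283-120897330, minus) in exon 4 of the transcript.
Bcl2: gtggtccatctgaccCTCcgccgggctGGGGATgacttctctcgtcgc
Mcl1: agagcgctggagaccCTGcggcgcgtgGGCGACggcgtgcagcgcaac
Bax: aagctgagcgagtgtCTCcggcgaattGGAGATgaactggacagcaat
Bak1: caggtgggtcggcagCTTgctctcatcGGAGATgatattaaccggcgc
Bid: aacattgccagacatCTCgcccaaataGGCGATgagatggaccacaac
Bbc3: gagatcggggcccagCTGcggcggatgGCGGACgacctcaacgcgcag

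The order of the members by transcript level differed between the populations, though Mcl1 led the antiapoptotic genes and Bax the effectors in both. Levels between genes are compared in FPKM, which divides by gene length. In saline germ cells the order from the top was Pmaip1 at 59.7 ± 14.2, Bax at 50.1 ± 2.95, Mcl1 at 36.6 ± 1.78, Bcl2l1 at 24.5 ± 2.97 and Bid at 19.8 ± 0.533 FPKM (SD, n = 3). Bcl2l11, Bad and Bbc3 followed at 3.47 ± 0.244, 3.34 ± 0.613 and 3.21 ± 0.702 FPKM, and Bak1 and Bcl2 closed it at 0.739 ± 0.132 and 0.285 ± 0.0527 FPKM. The libraries of Pmaip1 and Bax overlapped, as did those of Bcl2l11, Bad and Bbc3, while all other neighbours in this order were separate. In saline somatic cells Mcl1 led at 89.6 ± 4.45 FPKM, followed by Bax at 25.9 ± 3.17, Bak1 at 17.0 ± 1.55, Bcl2l1 at 15.9 ± 0.374 and Bad at 9.63 ± 0.498 FPKM. Bbc3, Bcl2l11 and Bcl2 stood at 4.89 ± 1.88, 3.76 ± 0.183 and 3.43 ± 0.211 FPKM, Bid at 2.31 ± 0.183 FPKM and Pmaip1 last at 0.584 ± 0.309 FPKM. Pmaip1 was thus first of 10 in germ cells and last of 10 in somatic cells, and it held the same places with dex, at 50.04 ± 10.6 and 0.2996 ± 0.0623 FPKM. The plot of FPKM by library shows that Bak1, Bcl2, Bid and Pmaip1 are the genes whose populations lie far apart.

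**Figure D1:**
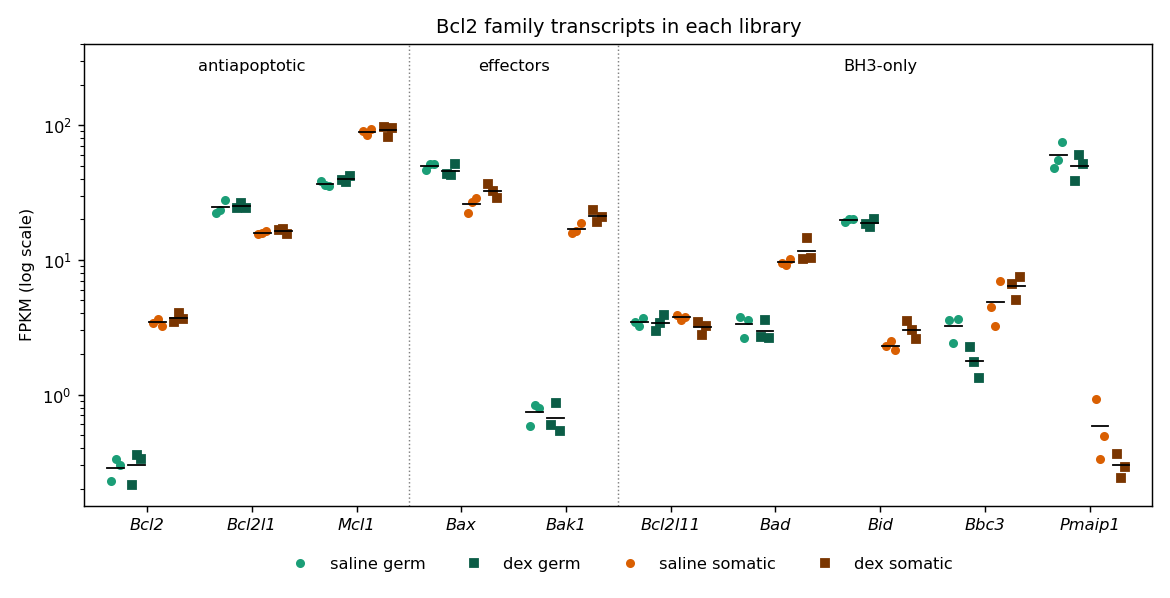
FPKM of each of the 10 genes on a log axis, with 1 point per library, 3 per group, and a black line at the group mean. Bcl2 and Bak1 lie lower and Bid and Pmaip1 higher in germ libraries (green) than in somatic libraries (orange and brown). For most genes, circles (saline) and squares (dex) of a population lie close together, while for Bbc3 the dex germ squares lie below the saline germ circles.

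Summed over the 10 genes, transcript levels were of similar size in all groups, at 202 ± 18.54 FPKM in saline germ, 188 ± 13.5 in dex germ, 173 ± 9.27 in saline somatic and 190 ± 10.9 in dex somatic cells (SD, n = 3). Its division by role was not. Antiapoptotic genes held 30.6% ± 2.12 of the sum in saline germ and 63.0% ± 1.81 in saline somatic cells, and BH3-only genes held 44.2% ± 3.26 and 12.2% ± 0.760. Effectors held a like share of 25.3% ± 1.62 and 24.8% ± 1.91. Pmaip1 alone made up 29.3% of the sum in saline germ and 0.34% in saline somatic cells, and Mcl1 18.3% and 51.8%. Such shares weigh transcripts only and say nothing of protein. No test was run on them.

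**Figure D2:**
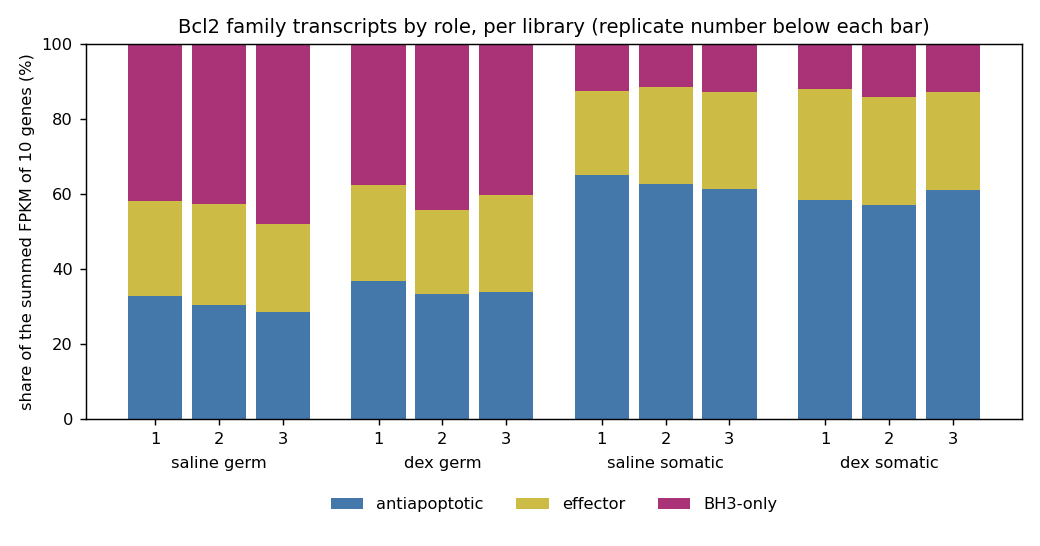
Share of the summed FPKM of the 10 genes held by antiapoptotic (blue), effector (yellow) and BH3-only (purple) genes, as 1 bar per library. The blue part is 28.5% to 36.7% of the bar in the 6 germ libraries and 57.0% to 65.0% in the 6 somatic libraries.

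The comparison of germ with somatic cells asks which members each population carries at this age. A gene is called here where its adjusted p was at or under 0.05. In saline, edgeR called 9 of the 10 genes, 4 higher and 5 lower in germ cells, where 76.5% of all 18870 genes tested were called (39.8% higher, 36.7% lower). In dex it again called 9 of 10, with the same 4 higher and 5 lower, against 76.3% of 18778 genes (40.5% higher and 35.7% lower). A count of 9 is thus near what this comparison gives for genes at large, and the size of the differences is what varies among members. In CPM, the libraries of the populations did not overlap for 10 of 10 genes in saline and 9 of 10 in dex, against 79.7% and 79.9% of all genes. In saline the count was 9 with TMM factors from all genes and 8 in FPKM. The 2 comparisons use different libraries of the same experiment.

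Among antiapoptotic members, Bcl2 was the lowest in germ cells. Its level was 0.227, 0.330 and 0.299 FPKM in saline germ replicates 1 to 3 and 3.42, 3.65 and 3.23 FPKM in saline somatic cells. The 6 germ libraries, dex included, lay between 0.212 and 0.354 FPKM and the 6 somatic libraries between 3.23 and 4.05 FPKM. The log2 fold change (germ over somatic) was -3.72 ± 0.18 (SE) in saline, a 13.2-fold lower level (edgeR adjusted p 2.87e-09), and -3.73 ± 0.20 in dex (5.59e-09). Mcl1, a short-lived protein that binds Bak1 and Bim, stood at 38.5, 36.05 and 35.1 FPKM in saline germ and 91.2, 84.6 and 93.1 FPKM in saline somatic cells. Its log2 fold change was -1.42 ± 0.077 in saline and -1.31 ± 0.091 in dex (edgeR adjusted p 6.59e-09 and 4.92e-08). Bcl2l1 ran the other way, at 22.3, 23.5 and 27.9 FPKM in saline germ and 15.6, 15.8 and 16.3 FPKM in saline somatic cells. This is a log2 fold change of 0.50 ± 0.094 in saline and 0.50 ± 0.082 in dex (edgeR adjusted p 0.000363 and 0.00013), and it was the only antiapoptotic member of the 3 to be higher in germ cells.

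The effectors were also split. Bak1 had 0.589, 0.837 and 0.792 FPKM in saline germ and 15.8, 16.3 and 18.7 FPKM in saline somatic cells, and 0.591, 0.871 and 0.539 against 23.4, 19.1 and 20.7 FPKM with dex. These germ values rest on 27 to 55 counts per library, against 791 to 1051 in somatic libraries. The log2 fold change was -4.65 ± 0.18 in saline and -5.06 ± 0.20 in dex, a 25.1-fold and a 33.5-fold lower level (edgeR adjusted p 2.93e-10 and 2.87e-10), and Bak1 had the largest deficit in germ cells of the 10. Bax was at 46.7, 51.8 and 51.8 FPKM in saline germ and 22.4, 26.8 and 28.6 FPKM in saline somatic cells, a log2 fold change of 0.82 ± 0.11 (edgeR adjusted p 2.51e-05). With dex the germ libraries had 43.5, 42.7 and 51.04 FPKM and the somatic libraries 36.5, 32.7 and 28.8 FPKM, and the log2 fold change was 0.38 ± 0.12 (edgeR adjusted p 0.0103). Bax transcript therefore exceeded Bak1 transcript in every library of both populations, and by far more in germ cells. The difference in Bax in dex missed the threshold without dex somatic replicate 3, at 0.29 (edgeR adjusted p 0.0532).

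Of the BH3-only genes, Pmaip1 and Bid were higher in germ cells and Bad and Bbc3 lower. Pmaip1 stood at 48.3, 55.2 and 75.5 FPKM in saline germ and at 0.929, 0.332 and 0.490 FPKM in saline somatic cells, and at 38.7, 59.7 and 51.7 against 0.365, 0.241 and 0.292 FPKM with dex. Its log2 fold change was 6.58 ± 0.27 in saline and 7.27 ± 0.22 in dex, or 95.5-fold and 155-fold (edgeR adjusted p 5.17e-10 and 2.9e-11). The size of the difference exceeded that of 93.0% of the genes tested in saline. Bid, which caspase-8 cleaves to link death receptors with mitochondria, was at 19.2, 20.1 and 20.1 FPKM in saline germ and 2.31, 2.49 and 2.13 FPKM in saline somatic cells. It differed by a log2 fold change of 2.97 ± 0.12 in saline and 2.51 ± 0.14 in dex (edgeR adjusted p 5.08e-10 and 6.2e-09). Bad, which is held inactive by phosphorylation in cells with survival signals, was at 3.79, 2.64 and 3.58 FPKM in saline germ and 9.48, 9.22 and 10.2 FPKM in saline somatic cells. Its log2 fold change was -1.65 ± 0.18 in saline and -2.08 ± 0.21 in dex (edgeR adjusted p 4.31e-06 and 1.61e-06).

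The remaining BH3-only genes were close between populations in saline. Bbc3 was at 3.59, 2.40 and 3.64 FPKM in saline germ and 4.49, 3.25 and 6.94 FPKM in saline somatic cells, so that the groups overlapped in FPKM and lay just apart in CPM. The log2 fold change of -0.72 ± 0.28 passed (edgeR adjusted p 0.0328), and it did so in 7 of 15 alternative fits. It was -0.40 (adjusted p 0.187) without saline somatic replicate 3, -0.54 (0.139) without saline germ replicate 2 and -0.85 (0.0516) without saline germ replicate 1. In dex the groups were separate, at 2.25, 1.74 and 1.34 FPKM in germ and 6.57, 5.06 and 7.48 FPKM in somatic cells, with a log2 fold change of -1.95 ± 0.26 (edgeR adjusted p 2.36e-05). Bcl2l11 was the one gene not called, at a log2 fold change of -0.24 in saline (95% interval -0.49 to 0.012, edgeR adjusted p 0.0768) and 0.0052 in dex (-0.32 to 0.33, adjusted p 0.977). Without saline germ replicate 3 its saline difference passed, at -0.32 (adjusted p 0.0422).

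**Figure D3:**
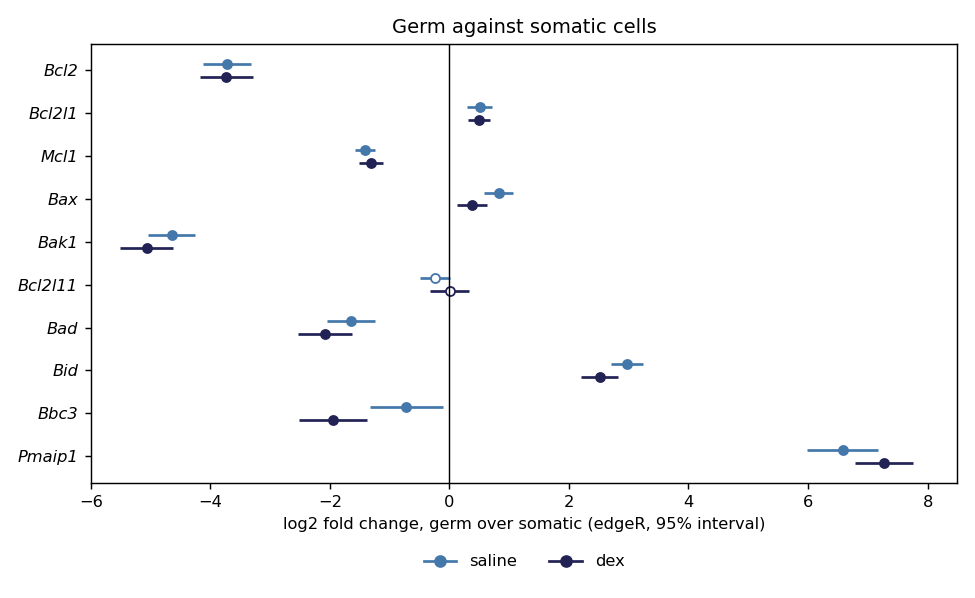
Log2 fold change of germ over somatic cells for each gene with its 95% interval, in saline (light blue, upper) and in dex (dark blue, lower), with filled points where edgeR called the gene. Bak1 and Bcl2 lie farthest to the left and Pmaip1 farthest to the right in both treatments, and Bcl2l11 alone has open points.

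Low levels in 1 population can be set beside the carry-over of the sort. In saline, Bcl2 stood in germ cells at 7.64% and Bak1 at 4.01% of its somatic level, where the somatic markers Acta2, Amh, Pdgfra, Sox9, Wt1 and Star stood at 0.320%, 0.677%, 2.62%, 3.62%, 4.55% and 17.4%. These markers are a selection from the Sertoli, Leydig, and peritubular and stromal lists. In those lists Dmrt1 stood at 297% and Tagln at 68.0%, and all markers but these and Star stood at or under 4.78%. Endothelial markers ran from 9.99% for Cdh5 to 151% for Pecam1. Pmaip1 stood in somatic cells at 1.06% of its germ cell level. Of the 9 germ cell markers, Nanos3 stood at 3.51% and all others at 0.121% to 0.374%, below Pmaip1. The summed germ markers in somatic libraries were 4.92 to 8.22 CPM in saline and 3.34 to 4.39 CPM in dex, and Pmaip1 there was 0.967 to 2.59 CPM in saline and 0.660 to 1.02 CPM in dex. The part of carry-over in these low values was not tested. With library totals in place of TMM scaling, the median over all genes rose from 0.072 to 0.21 in saline and from 0.12 to 0.30 in dex, and the called members kept their direction. With library totals, and with those medians not subtracted, Bcl2l1 was at 0.64 and 0.68 and Bax at 0.96 and 0.56.

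Some members share exons with a neighbour, and whether counting used strand is not given in the sources used here. In GENCODE M21, Ggnbp1 overlaps 25.5% of the exonic bases of Bak1 on the opposite strand, Gpr137 20.5% of Bad, Bcl2l13 17.7% of Bid and D630008O14Rik 6.09% of Bcl2. Gm45808 overlaps 12.2% of Bax on the same strand. The deposited length of Bad was 2007 bases, where GENCODE M21 has 2558 exonic bases, so its share holds for M21 only. Ggnbp1 had a mean of 248 counts in saline germ and 139 counts in saline somatic libraries, the reverse of Bak1. Bcl2l13 had means of 1269 and 1169 counts there, where Bid had 1449 and 185 counts. D630008O14Rik and Gm45808 had 0 counts in every library except 7 counts in dex somatic replicate 3 for the former. The effect of shared exons on the member counts was not tested.

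The comparison of dex with saline asks whether glucocorticoid moves the family in either population. In germ cells edgeR called 0 of the 10 genes, where 1.25% of all 18550 genes tested were called. Of the 10, 1 (Bbc3) had an unadjusted p under 0.05, against 14.7% of all genes. DESeq2 called 1 of 10 (Bbc3) and 674 genes in all, and limma on log2(FPKM + 0.1) called 0 of 10 and 6 genes in all. The median log2 fold change of the 10 was -0.13, with 2 above and 8 below 0, beside a median of -0.0027 for all genes. The antiapoptotic and effector members had narrow intervals around 0 except where counts were low. Bcl2l1 was at -0.0028 (95% interval -0.19 to 0.18), Mcl1 at 0.095 (-0.071 to 0.26) and Bax at -0.16 (-0.36 to 0.044). For Bcl2 and Bak1 the intervals were -0.59 to 0.69 and -0.93 to 0.60, so that changes of that size were not detectable at this depth.

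Bbc3 moved farthest of the 10 in germ cells. Its level was 7.54, 5.01 and 7.53 CPM in saline germ replicates 1 to 3 and 4.66, 3.59 and 2.75 CPM in dex germ replicates 1 to 3. All 3 dex libraries lay below all 3 saline libraries, which was so, in either direction, for 20.0% of all genes tested. The log2 fold change was -0.88 ± 0.25 (SE; 95% interval -1.41 to -0.34), 1.83-fold lower, and its size exceeded that of 96.1% of the genes, but it did not pass with edgeR (adjusted p 0.103). Over 15 alternative fits it lay between -1.08 and -0.60, with adjusted p from 0.029 to 0.33. It passed in 2 of them, DESeq2 (adjusted p 0.0465) and edgeR with no filter on low counts (0.029). Beside it, the summed level of 6 Leydig markers in germ libraries was 8.87 to 11.6 CPM in saline and 4.70 to 8.63 CPM in dex, while that of 7 macrophage markers was higher with dex, at 9.34 to 13.1 and 14.6 to 17.1 CPM. The macrophage rise was that of Mrc1, at a mean of 6.14 CPM in saline and 11.4 CPM in dex germ libraries. The means of the other macrophage markers were not higher with dex. Of the 3 macrophage markers tested, 1 was higher and 2 lower, and edgeR called 0. Sums of 8 Sertoli markers (383 to 434 and 319 to 405 CPM), 7 peritubular and stromal markers (94.7 to 129 and 109 to 111 CPM), 5 endothelial markers (54.5 to 59.9 and 51.9 to 64.8 CPM), 8 lymphocyte and neutrophil markers (7.01 to 8.58 and 5.22 to 10.8 CPM) and 5 erythroid markers (7.53 to 9.38 and 4.38 to 7.55 CPM) overlapped. The Sertoli sum was mostly Dmrt1, at a mean of 364 CPM in saline and 323 CPM in dex germ libraries. Dmrt1 stood in saline germ cells at 297% of its somatic level. All 7 Sertoli markers tested were lower with dex, with a median log2 fold change of -0.51. Of these, 4 had an unadjusted p under 0.05, against 14.7% of all genes, and edgeR called 0. All 3 erythroid markers tested were also lower with dex, at a median of -1.57, and 2 had an unadjusted p under 0.05. Of 5 endothelial markers, 2 were higher and 3 lower, and 2 had an unadjusted p under 0.05. In both lists edgeR called 0. The part of these markers in the Bbc3 values was not tested. Over the 12 libraries, with each population's mean removed, the genes most like Bbc3 in log2 CPM were Trmt2a (Pearson's r 0.92), Rhox8 (0.86) and Thbs3 (0.86) out of 11975 genes, a description over libraries that share groups.

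The other BH3-only genes did not pass in germ cells. Pmaip1 had 126, 144 and 195 CPM in saline and 99.8, 153 and 132 CPM in dex, which overlapped, for a log2 fold change of -0.28 (95% interval -0.60 to 0.047, edgeR adjusted p 0.43). It passed only in the fit with no filter on low counts (adjusted p 0.0497). Bad was at -0.20 (-0.66 to 0.26), Bid at -0.11 (-0.30 to 0.076) and Bcl2l11 at -0.049 (-0.32 to 0.22).

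In somatic cells edgeR also called 0 of the 10, where 3.91% of 16766 genes were called, and 2 of 10 (Bax and Bak1) had an unadjusted p under 0.05, against 16.1% of all genes. DESeq2 called 0. The median log2 fold change of the 10 was 0.19, with 8 above and 2 below 0, beside -0.0066 for all genes. Dex and saline libraries did not overlap in CPM for 4 of the 10, against 21.4% of all genes, and for 2 of the 10 (Bax and Bcl2l11) when the TMM factors came from all genes. Bax was at 37.3, 46.5 and 47.3 CPM in saline somatic replicates 1 to 3 and 60.7, 53.2 and 47.5 CPM with dex. Bak1 was at 40.2, 43.3 and 47.3 CPM in saline and 59.6, 47.4 and 52.0 CPM with dex. In both effectors the highest saline and the lowest dex library were nearly level. The log2 fold changes were 0.33 ± 0.12 for Bax (95% interval 0.065 to 0.59, edgeR adjusted p 0.187) and 0.31 ± 0.12 for Bak1 (0.058 to 0.56, adjusted p 0.193), and neither passed in any of 15 alternative fits, whose lowest adjusted p were 0.136 and 0.164. Over the 12 libraries, with each population's mean removed, the genes most like Bax were Kif16b (Pearson's r 0.93), Timm22 (0.91) and Tut1 (0.90).

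The other genes that did not overlap in CPM were Bcl2l11, lower with dex, and Bad, higher. Bcl2l11, a known target of FoxO factors and in lymphocytes a gene that glucocorticoid raises, was at 33.2, 31.5 and 31.9 CPM in saline and 29.4, 22.9 and 27.0 CPM with dex. Its log2 fold change was -0.26 (95% interval -0.53 to 0.0083, edgeR adjusted p 0.329). Bad was at 0.27 (-0.054 to 0.60, adjusted p 0.42), and its groups overlapped in FPKM. Bid was at 0.39 (-0.025 to 0.80), Bbc3 at 0.38 (-0.15 to 0.90) and Pmaip1, on 13 to 51 counts, at -0.96 (-2.29 to 0.37). The antiapoptotic genes had the narrowest intervals, at 0.11 (-0.14 to 0.35) for Bcl2, 0.038 (-0.15 to 0.22) for Bcl2l1 and 0.026 (-0.16 to 0.21) for Mcl1. Cell type markers moved in the same libraries. The summed level of 7 peritubular and stromal markers was 5232 to 6872 CPM in saline and 8644 to 9929 CPM with dex, and that of 7 macrophage markers was 52.04 to 89.9 and 24.4 to 33.1 CPM. Sums of 6 Leydig markers (121 to 205 and 86.5 to 177 CPM), 8 Sertoli markers (3245 to 3375 and 2940 to 3425 CPM), 5 endothelial markers (238 to 279 and 244 to 320 CPM), 8 lymphocyte and neutrophil markers (18.55 to 29.9 and 17.45 to 33.9 CPM) and 5 erythroid markers (248 to 386 and 83.3 to 294 CPM) overlapped. Sums can hide single genes, and the endothelial sum was mostly Cdh5, at means of 220 and 253 CPM. By gene, edgeR called lower 1 of 5 endothelial, 1 of 6 Leydig, 1 of 6 lymphocyte and neutrophil and 1 of 3 erythroid markers tested. It called 0 of 8 Sertoli markers, where 3.91% of all genes were called. The part of these markers in the member values was not tested.

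**Figure D4:**
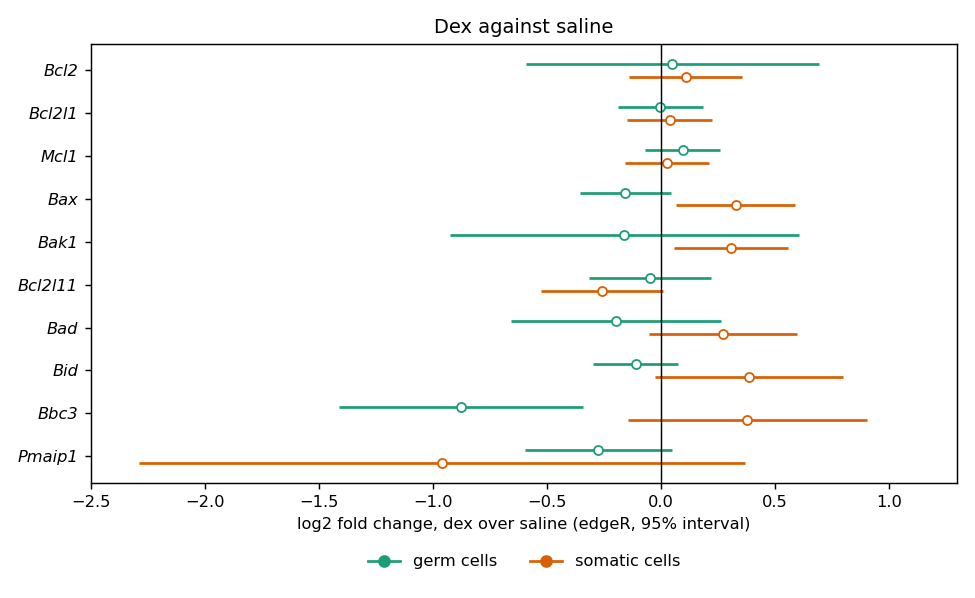
Log2 fold change of dex over saline for each gene with its 95% interval, in germ cells (green, upper) and somatic cells (orange, lower). All points are open, since edgeR called none of the 10 in either population, and the intervals that leave out 0 are those of Bbc3 in germ cells and of Bax and Bak1 in somatic cells.

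Whether the dex effect differed between populations was tested in one fit of the 12 libraries. edgeR called 0 of the 10 genes, where 0.827% of 20551 genes were called, and 3 of 10 (Bbc3, Bax and Bid) had an unadjusted p under 0.05, against 13.3% of all genes. DESeq2 called 0. The difference (germ minus somatic, log2) was -1.23 ± 0.39 for Bbc3 (95% interval -2.06 to -0.40, edgeR adjusted p 0.174), -0.45 ± 0.17 for Bax (-0.80 to -0.097, adjusted p 0.245) and -0.46 ± 0.18 for Bid (-0.83 to -0.082, adjusted p 0.273). For Bbc3 it passed in 1 of 20 alternative fits, that with no filter on low counts (adjusted p 0.0343). This contrast uses the same libraries as both dex comparisons and adds no independent evidence to them.

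**Figure D5:**
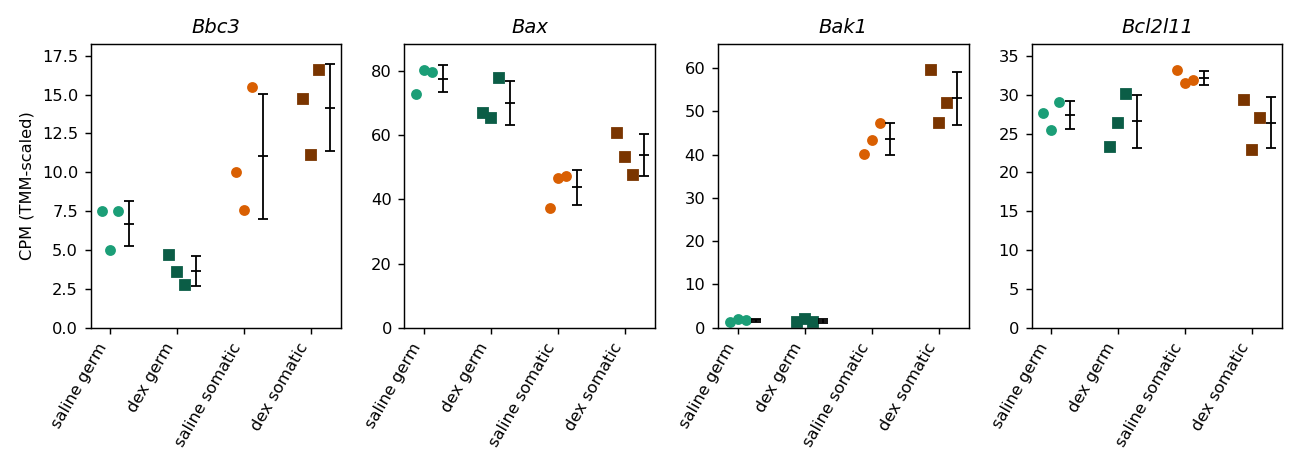
CPM of Bbc3, Bax, Bak1 and Bcl2l11 in each library, with the mean and SD of the 3 libraries of a group in black beside the points. Bbc3 is lower in all 3 dex germ than in all 3 saline germ libraries, and Bax and Bak1 in dex somatic cells lie above saline by a margin that nearly closes between the nearest libraries.

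Around the members, other genes of the pathway were taken from 5 lists. In germ against somatic cells in saline, edgeR called 8 of 11 other Bcl2 family genes tested, 4 in each direction, where 76.5% of all genes were called, 39.8% higher and 36.7% lower. Bik, a BH3-only gene, was at 12.3 ± 0.191 FPKM in germ and 0.718 ± 0.243 FPKM in somatic cells (log2 fold change 3.98, edgeR adjusted p 1.9e-08), and Bmf, also BH3-only, was higher by 1.44 (3.13e-05). Bok, a relative of Bax and Bak1, was at 7.09 ± 0.256 against 90.2 ± 2.25 FPKM (-3.79, 8.58e-12), and the antiapoptotic Bcl2l2 (Bcl-w) at 1.17 ± 0.270 against 16.8 ± 1.22 FPKM (-3.95, 6.26e-10). Bok and Bcl2l2 thus lay on the side of Bak1 and Bcl2, and Bik and Bmf on that of Pmaip1 and Bid. These genes were named for the size of their difference and do not stand for their roles. Hrk, also BH3-only, had a lower mean in saline germ cells, at 2.63 against 4.52 CPM in saline somatic cells. Among the members, the BH3-only Bad and Bbc3 were lower in germ cells, and Bax and Bcl2l1 were higher. In dex, 9 of 10 tested were called, 6 higher and 3 lower, against 76.3% of all genes, with Bik at 4.54, Bmf at 1.17, Bcl2l2 at -3.54 and Bok at -3.65.

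Downstream of the mitochondrion, 18 of 20 apoptosome and caspase genes were called in saline, 8 higher and 10 lower in germ cells, against 76.5% of all genes (39.8% higher and 36.7% lower), with a median log2 fold change of -0.45 beside 0.072 for all genes. Parp1, a caspase substrate and DNA repair enzyme, was higher by 1.93 (edgeR adjusted p 1.79e-09). Casp8, which acts under death receptors and cleaves Bid, was lower by -2.62 (1.2e-07), and Htra2, a mitochondrial protease, by -2.06 (4.26e-07). Of 9 death receptor genes tested, 7 were called lower and 1 higher, with a median of -2.14, against the same shares. The receptor Tnfrsf1a was at -3.35 (2.48e-11) and Cflar, the inhibitor of Casp8, at -2.79 (8.84e-10), while the receptor Tnfrsf10b was higher by 1.61 (8.79e-07). Bid thus stood high in the population in which Casp8 and most death receptor genes stood low. In dex, 18 of 20 and 7 of 8 were called, against 76.3% of all genes, and Endog, a mitochondrial nuclease, stood at 1.70 (1.4e-05) and the receptor Fas at -4.51 (0.000202). The Fas value rests on 0 to 9 counts per dex germ library, against 51 to 77 in dex somatic libraries.

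Upstream, 14 of 17 p53 pathway genes were called in saline, 8 higher and 6 lower, with a median of 0.28 and against 76.5% of all genes called. Trp53inp1 and Aen, both p53 targets, were higher by 3.08 (edgeR adjusted p 1.3e-09) and 2.28 (1.3e-08), and Btg2 and Plk2, also p53 targets, were at -2.73 (5.57e-07) and -1.41 (1.39e-07). As with the p53 targets Pmaip1 and Bbc3 themselves, both directions occurred. All 8 genes listed as FoxO and stress regulators of Bim or Puma were called, 5 higher and 3 lower, against the same 76.5% of all genes (39.8% higher and 36.7% lower). The list also holds Ddit4, an inhibitor of mTORC1, and action of its genes on Bim or Puma was not tested. Foxo1 was at 24.7 ± 1.55 FPKM in germ and 4.36 ± 0.374 FPKM in somatic cells (2.38, adjusted p 6.81e-10), Tsc22d3 was higher by 2.33 (6.6e-10), and Egr1 and Ddit3 (CHOP) were at -2.77 (3.33e-09) and -2.31 (3.63e-06). In dex, 15 of 17 and 7 of 8 were called, against 76.3% of all genes, among them Trib3 at 2.02 (1.3e-05).

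With dex, few of these genes changed. In germ cells edgeR called 0 of 10 other Bcl2 family genes, 1 of 20 apoptosome and caspase genes, 0 of 8 death receptor genes, 0 of 17 p53 pathway genes and 2 of 8 regulators, where 1.25% of all genes were called. Parp1 fell by 0.33 on the log2 scale (edgeR adjusted p 0.0263), Tsc22d3 fell by 0.37 (0.0225), and Ddit4, a glucocorticoid-responsive inhibitor of mTORC1, rose by 1.61 (0.00057). Parp1 and Tsc22d3 lost the call in the fit of all 12 libraries (adjusted p 0.0728 and 0.0645) and, like Ddit4 (0.0637 and 0.0622), in both fits on FPKM. Parp1 lost it without dex germ replicates 1 and 3 and saline germ replicates 2 and 3 in turn (adjusted p 0.0506 to 0.132), and Tsc22d3 without dex germ replicate 1 and saline germ replicates 1 and 2 (0.0735 to 0.132). In somatic cells it called none of 10, 20, 9 and 16 genes of the first 4 lists and 2 of 8 regulators, where 3.91% of all genes were called. Tsc22d3 (GILZ) rose by 1.03 (8.02e-05) and Egr1 rose by 0.51 (0.042), which did not pass with DESeq2 (0.131), library totals (0.0658) or the fits on FPKM (0.206 and 0.202). The call was also lost without saline somatic replicate 3 and without each dex somatic library in turn (0.0561 to 0.121), and the value was 0.33 without saline somatic replicate 2 (0.0285). At an unadjusted p under 0.05 the first 4 lists held 1, 4, 1 and 3 genes in germ cells and 2, 3, 2 and 4 in somatic cells, against 14.7% and 16.1% of all genes. DESeq2, which called 674 genes in all in germ cells, called 1, 1, 0 and 2 genes of these 4 lists there and 0, 1, 0 and 0 in somatic cells.

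The promoters of the members were read for the letters that glucocorticoid receptor sites share. Of the 10 genes, 9 matched the RefSeq promoter table (GRCm38.p6), with 15 start sites between them. AGAACA, 1 arm of the glucocorticoid response element, was searched on both strands in the 250 bases before each start. It was in 0 of these 15 windows and in 16.1% of all 32851 windows of that length. GGGCGG, the core of an Sp1 site, was in 10 of 15 windows, from 7 of the genes, and in 32.7% of all. No match says only that these letters are not in this window. Bak1 and Bid are shown as the members with the largest germ deficit and the largest germ excess for which the sequence was read. Both lie on the minus strand and are written 5′ to 3′ toward the start with each CG in capitals. Bak1 (chr17:27028628-27028877) has 8 CG and no GGGCGG, and Bid (chr6:120916825-120917074) has 18 CG and GGGCGG, where the median of all windows is 6 CG. GENCODE M21 sets the end of Bak1 at 27029009, so that this window lies inside a longer annotated transcript.
Bak1: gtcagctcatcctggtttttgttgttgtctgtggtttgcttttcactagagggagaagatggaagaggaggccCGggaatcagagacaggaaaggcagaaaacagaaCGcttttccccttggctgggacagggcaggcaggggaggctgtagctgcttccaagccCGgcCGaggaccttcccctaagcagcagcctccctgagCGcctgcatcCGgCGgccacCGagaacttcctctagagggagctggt
Bid: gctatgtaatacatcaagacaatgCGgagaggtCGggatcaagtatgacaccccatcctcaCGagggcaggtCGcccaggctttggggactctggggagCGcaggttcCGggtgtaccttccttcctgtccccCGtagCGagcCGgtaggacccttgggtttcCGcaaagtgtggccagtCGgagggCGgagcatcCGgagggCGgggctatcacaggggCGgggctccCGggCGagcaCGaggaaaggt

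The genes are, in GRCm38 coordinates of the deposited table, Bcl2 (ENSMUSG00000057329) on chromosome 1 from 106538178 to 106714274, Bcl2l1 (ENSMUSG00000007659) on chromosome 2 from 152780668 to 152831728, Bcl2l11 (ENSMUSG00000027381) on chromosome 2 from 128126038 to 128162547, Mcl1 (ENSMUSG00000038612) on chromosome 3 from 95658788 to 95663176 and Bax (ENSMUSG00000003873) on chromosome 7 from 45461697 to 45466898. Bak1 (ENSMUSG00000057789) lies on chromosome 17 from 27019810 to 27029009, Bad (ENSMUSG00000024959) on chromosome 19 from 6941861 to 6951898, Bid (ENSMUSG00000004446) on chromosome 6 from 120891930 to 120916853, Bbc3 (ENSMUSG00000002083) on chromosome 7 from 16308393 to 16318205 and Pmaip1 (ENSMUSG00000024521) on chromosome 18 from 66458604 to 66465550. All are annotated as protein-coding.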

How the data were processed

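Groups and replicate numbers came from the labels of the 12 libraries. The authors aligned reads to mm10 with HISAT2 2.0.5 and counted them per gene with featureCounts 1.5.0-p3, and the deposited counts carry no normalization. The authors also deposited FPKM values, counts divided by gene length and library size, which served for levels and for limma fits on log2(FPKM + 0.1) and log2(FPKM + 1). Whether counting used strand is not given in the sources used here. The authors' tables of fold changes and p-values from DESeq2 1.20.0 were not used. Replicates differed beyond sampling noise.

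Each comparison was fitted on the counts of its 6 libraries (the difference of dex effects on all 12) across all genes with the quasi-likelihood test of edgeR 4.0.16 in R 4.3.3, TMM scaling and filterByExpr at a minimum count of 10. Standard errors are the log2 fold change over the square root of F, and p-values, two-sided, were Benjamini-Hochberg adjusted over all genes tested. CPM used TMM over 12 libraries on genes kept by the filter, a choice made after values with factors from all genes had been seen. Alternatives used DESeq2 1.42.0, limma 3.58.1, other scaling and filters, a replicate block and each library left out. The scripts were tested on simulated counts. The members, gene lists and tests were chosen with earlier results of these data known. All 10 members were named in every comparison. From each list the called genes were named with dex, at most 5 per direction, and between populations the 2 with the largest log2 fold change per direction at a mean FPKM of at least 1 in the higher group. One gene that this rule names is not reported here. Of the table's gene identifiers, 99.8% were found in GENCODE M21, which gave exon overlaps.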

Additional observations from a re-analysis of the deposited data

Results flagged for a closer look

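No member of the family met a rule for a closer look. Among the regulators listed beside them, 2 genes had a dex effect that differed between the populations by the test of the difference over 12 libraries. For Ddit4 the dex effect in germ cells exceeded that in somatic cells by 1.49 on the log2 scale (edgeR adjusted p 0.0152). Ddit4 was at 36.7 ± 10.7 CPM in saline germ, 113 ± 26.1 in dex germ, 128 ± 26.05 in saline somatic and 140 ± 23.1 CPM in dex somatic cells (SD, n = 3). The adjusted p was 0.0568 without saline germ replicate 1 and 0.0502 without saline germ replicate 2, and 0.0788 and 0.0581 in the fits on log2(FPKM + 0.1) and log2(FPKM + 1). For Tsc22d3 the difference was -1.37 (edgeR adjusted p 3.2e-05), with 204 ± 8.99 CPM in saline germ, 159 ± 8.34 in dex germ, 40.6 ± 4.58 in saline somatic and 81.3 ± 4.25 CPM in dex somatic cells.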

How the results depend on the processing

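The number of the 10 members called stayed at 0 for dex in somatic cells under every alternative run, and at 8 to 10 (saline) and 8 to 9 (dex) of 10 between populations. For dex in germ cells it was 2 with no filter on low counts and 1 with DESeq2, and for the difference of dex effects it was 1 with no filter. Leaving out 1 library at a time gave 0 members in each dex comparison. Counts over all genes moved more. For dex in germ cells 231 genes became 6 with limma on log2(FPKM + 0.1), 767 with no filter, 674 with DESeq2, and 49 to 265 without 1 library. In somatic cells 655 became 251 to 1061, and 354 to 547 without 1 library, and for the difference 170 became 57 to 706, and 79 to 172 without 1 library. Parp1 and Tsc22d3 in germ cells kept no call with the replicate block (adjusted p 0.105 and 0.0885). The cause was not tested. Counts of members whose groups do not overlap were compared under an alternative chosen after seeing the data, TMM factors from all genes, which gave 1, 2, 9 and 9 for dex in germ cells, dex in somatic cells and the populations in saline and dex, where filtered genes gave 1, 4, 10 and 9.

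In germ against somatic cells in saline, the deviations of same-numbered replicates had r of 0.085, 0.15 and 0.12 and those of different numbers -0.099 to -0.0097, while in the other comparisons same-numbered replicates had r from -0.21 to 0.12. Since not every pair passed 0.1 and the labels give no pairing, the numbers were not taken to pair the samples. With the replicate block the members called were 0, 0, 9, 9 and 0 over the 5 comparisons, and all genes called for dex in germ cells were 65.

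Members near 0 that passed no test changed sign. For dex in germ cells, Bcl2l1 became 0.00053 with DESeq2's size factors in edgeR, 0.020 with library totals, 0.0016 with no filter, 0.0010 with DESeq2, 0.025 and 0.024 in the FPKM fits, 0.0014 with the replicate block and 0.0036 with 12 libraries in one fit. In somatic cells, library totals gave -0.022 for Bcl2l1 and -0.032 for Mcl1, and 12 libraries in one fit gave -0.00058 for Mcl1. For the difference of dex effects, library totals gave 0.034 for Bcl2 and 0.042 for Bcl2l1, and no filter 0.0036 for Bcl2l1. Leaving out 1 library at a time gave, for dex in germ cells, -0.093 to 0.24 for Bcl2, -0.065 to 0.091 for Bcl2l1 and -0.15 to 0.038 for Bcl2l11. It gave -0.020 to 0.11 for Mcl1 with dex in somatic cells, -0.095 to 0.13 for Bcl2l11 between populations in dex, and -0.17 to 0.16 for Bcl2 and -0.084 to 0.077 for Bcl2l1 in the difference.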
